A study of Mus musculus with 3 samples.

Results

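Cytochrome P450 genes were followed in whole mouse skin at 3 ages: before birth on embryonic day 18.5 (E18.5), on the third day after birth (P3) and in the adult at 10 weeks. They were taken as every row whose symbol begins with Cyp and a digit, with Cyp51 left out, which gave 102 of the 21881 gene rows in each table. The skin came from FVB mice, an inbred laboratory strain, headed WT (wild type) in the tables, and no treatment, transgene or other difference than age is named. Levels are FPKM, fragments scaled to transcript length and to the number of mapped fragments, from sequencing of total RNA. GEO's design text names 2 biological replicates for each age, but only their average is tabulated, so no difference below has a replicate check, a standard deviation or a p-value. Where 3 values follow each other they stand in the order E18.5, P3, 10 weeks. Sequencing depth is not given, so the precision of low values is unknown.

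Cytochrome P450 enzymes are heme proteins that insert oxygen into their substrates, with electrons delivered by the oxidoreductase Por in the endoplasmic reticulum or by adrenodoxin in mitochondria. In skin, members of the superfamily are known for hydroxylating the very long fatty acids of barrier ceramides, degrading retinoic acid, handling vitamin D, cholesterol and steroids, oxidising arachidonic acid, and metabolising foreign chemicals. The family number in a symbol follows sequence similarity, and the letter after it names the subfamily.

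The feature that the members share by sequence is the loop around the cysteine that holds the heme iron. Of the 102 members, 98 matched a coding sequence of the GENCODE transcripts, and 91 of these (92.9%) encode the published P450 cysteine signature, against 11 of 21747 other genes (0.0506%). Of the 33 members that reached 1 FPKM at 1 or more ages, 28 encode it, and Cyp20a1, Cyp2b10, Cyp2s1, Cyp39a1 and Cyp7b1 do not match the pattern in the transcript read. The loop is shown for the most abundant member of each role that has it, 5′ to 3′ over 30 bases, with the codon of the iron-binding cysteine in capitals at bases 22 to 24.
Cyp4f39: ttctcagcaggtcccaggaatTGCatcggg
Cyp26b1: tttggcggtggcgtgcggaccTGCctgggc
Cyp27a1: ttcggctatggggttcggtctTGCctgggt
Cyp11a1: tttggctggggtgttcggcagTGTctgggc
Cyp1a1: tttggtttgggcaagcgaaagTGCatcgga
Cyp2g1: ttttcctctggaaagcgcatcTGCgttggg
Cyp4b1: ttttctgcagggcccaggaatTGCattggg
The cysteine codon was TGC in 20 of the 28 and TGT in 8. The loops of the family 4 genes Cyp4f39 and Cyp4b1 differ at 4 of the 30 bases, whereas Cyp2g1 and Cyp4b1 differ at 12 and Cyp1a1 and Cyp11a1 at 12.

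Most P450 genes were hardly detected in skin, and those that were detected were mostly most abundant in the adult. A level of 1 FPKM at 1 or more ages was reached by 33 members (32.4%), compared with 67.0% of all gene rows. Of these 33, 21 reached it before birth, 25 in the newborn and 33 in the adult, and 20 reached it at all 3 ages. Among the 14662 rows of any gene that reached it, 91.3%, 87.9% and 94.0% did so at the successive ages. Of these rows, 12094 reached it at all 3 ages and 5.35% at 10 weeks alone. At 10 weeks alone it was reached by 7 members, namely Cyp2ab1, Cyp2j7-ps, Cyp2j8-ps, Cyp2j12-ps, Cyp2r1, Cyp7b1 and Cyp21a1. No member reached it at E18.5 alone or at P3 alone. The summed level of the 102 members was 180.7, 333.7 and 702.8 FPKM at the successive ages. Just above the minimum stood Cyp2j7-ps with a highest value of 1.01 FPKM and Cyp21a1 with 1.24, and just below it Cyp4f18 with 0.974 and Cyp2a5 with 0.912.

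The 33 members were compared between ages as differences in log2(FPKM + 1), a scale that understates the change of low genes, and a gene was called higher or lower from a 2-fold difference on that scale. A member that passed the minimum through 1 age had to be highest there, though not necessarily by 2-fold. The counts therefore describe these 33 members and not the 102. At P3 against E18.5, 8 members were higher (background 9.56% of all rows that reached the minimum) and 2 lower (background 9.42%), with a median difference of 0.07 for the members and 0.03 for all rows. At 10 weeks against P3, 20 were higher (background 19.8%) and 3 lower (background 9.98%), with medians of 1.27 and 0.14. At 10 weeks against E18.5, 19 were higher (background 16.1%) and 1 lower (background 6.92%), with medians of 1.22 and 0.22. The 3 comparisons share their ages and are not independent of each other.

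**Figure D1:**
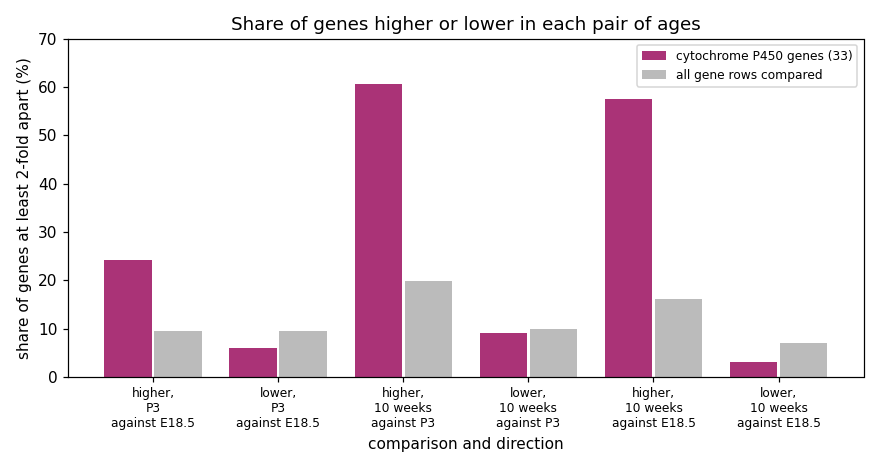
Share of genes (%) at least 2-fold higher or lower in each pair of ages, for the 33 cytochrome P450 genes at 1 FPKM or more and for all gene rows at 1 FPKM or more. The bars of the P450 genes stand above the background for the higher direction, at 60.6% against 19.8% for 10 weeks against P3, and close to or below it for the lower direction, at 9.09% against 9.98%.

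By pattern over the 3 ages, 17 members (51.5%) were at least 2-fold higher at 10 weeks than at both younger ages, against a background of 12.3%. They were Cyp1a1, Cyp1b1, Cyp2ab1, Cyp2d22, Cyp2e1, Cyp2f2, Cyp2g1, Cyp2j6, Cyp2j8-ps, Cyp2j9, Cyp2j12-ps, Cyp3a57, Cyp4b1, Cyp4f13, Cyp4v3, Cyp7b1 and Cyp27a1. Among the 20 members at 1 FPKM or more at every age, whose inclusion did not rest on 1 age, 8 (40%) showed this pattern, against 8.65% of the 12094 rows that met the same minimum. Only Cyp2b19 and Cyp2s1 of the 33 were highest at P3 by this rule (background 5.35%), and none at E18.5 (background 2.91%). At E18.5, 5 were lowest by the same rule (background 2.45%), namely Cyp1a1, Cyp1b1, Cyp2f2, Cyp2g1 and Cyp17a1. Cyp2e1 alone was lowest at P3 (background 5.54%), Cyp2w1 alone was lowest at 10 weeks (background 3.51%), and 6 members stayed under 2-fold in all 3 comparisons (background 60.3%). Without regard to size, 1 member, Cyp11a1, had its highest value at E18.5 (background 18.5%), 7 had it at P3 (background 33.8%) and 25 had it at 10 weeks (background 47.7%).

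**Figure D2:**
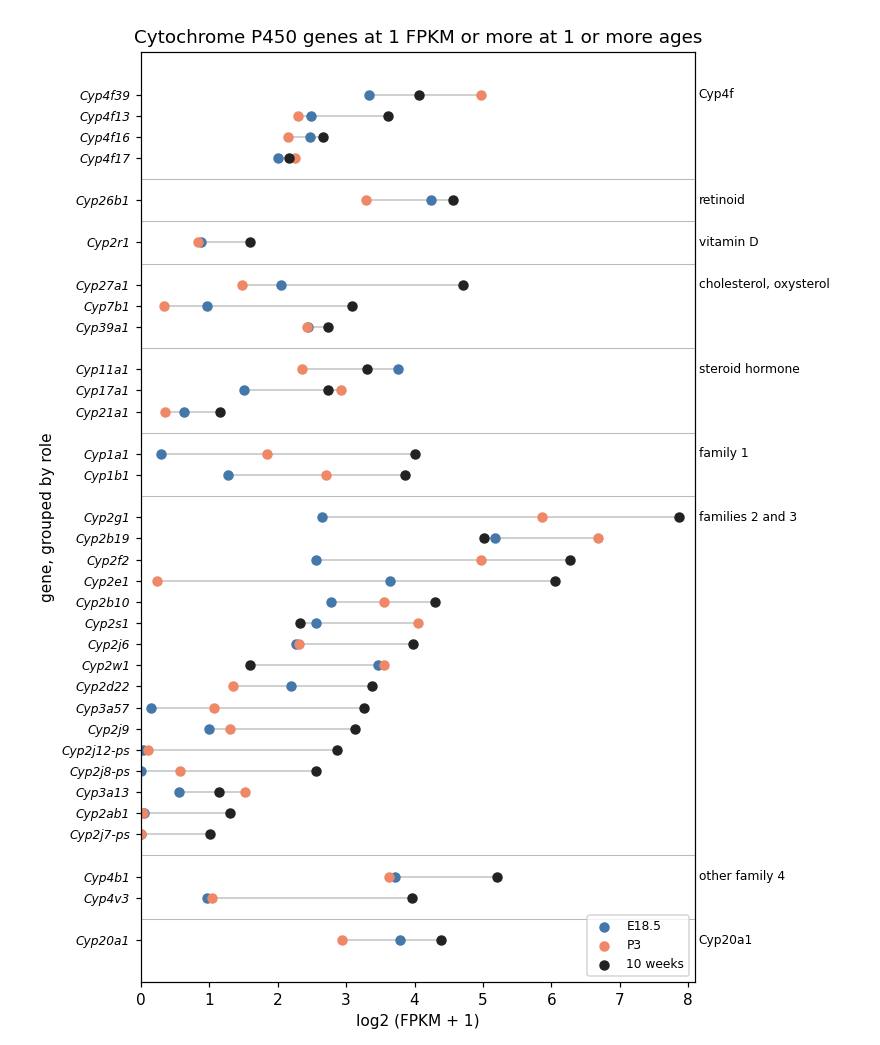
Level of each of the 33 cytochrome P450 genes at 1 FPKM or more, as log2(FPKM + 1), with 1 point per age (E18.5, P3, 10 weeks) and the genes grouped by role. The 10-week point lies to the right of both others in 25 of the 33 genes, and the P3 point in 7, among them Cyp4f39, Cyp2b19 and Cyp2s1.

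The tissue mix differed between the 3 samples, and its part in the P450 differences was not tested. Summed marker levels at E18.5, P3 and 10 weeks were 4238, 1499 and 5973 FPKM for 7 white adipocyte genes, 3712, 309.8 and 18579 for 7 skeletal muscle genes, and 3333, 1218 and 4258 for 6 fibroblast genes. They were 154, 64.5 and 1447 FPKM for 6 macrophage genes and 116, 197 and 1579 for 8 sebaceous gland genes. At 10 weeks against P3, 7 of 7 adipocyte, 7 of 7 muscle, 6 of 6 macrophage, 4 of 6 fibroblast and 5 of 8 sebaceous genes were higher, and no gene of these lists was listed at 0. Markers of keratinocytes, which define the epidermis, were present at every age. The 6 basal genes summed to 2121.4, 5310.6 and 1632.5 FPKM. The 9 suprabasal genes summed to 12128 FPKM at E18.5 and 5018 at 10 weeks. Their P3 sum of 12536 lacks Krt1 and Krt10, whose estimates failed there, so it cannot be set beside the others. Of the 7 with a P3 value, 6 were higher at P3 against E18.5 and 7 lower at 10 weeks against P3. In whole skin, fewer cells of a type and less RNA per cell cannot be told apart. The E18.5 sample also held Y-linked RNA, with Ddx3y at 24.1, 0.0218 and 0 FPKM and the X-inactivation RNA Xist at 0.0433, 64.6 and 73.0. Sex and age therefore cannot be told apart in the comparisons with E18.5. P3 and 10 weeks were alike in these 2 RNAs.

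The Cyp4f subfamily holds the barrier lipid enzymes. Cyp4f39 is the mouse counterpart of human CYP4F22, which hydroxylates the far end of the very long fatty acids that become acylceramides. Its level was 9.12, 30.3 and 15.7 FPKM over the 3 ages, so the newborn was highest. The difference was 1.63 in log2 for P3 against E18.5 and -0.91 for 10 weeks against P3, short of 2-fold. With the ages scaled to each other by the median of ratios the latter difference was -1.004, and by the upper quartile -1.10, both past 2-fold.

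The other Cyp4f genes are fatty acid and leukotriene hydroxylases. Of those that reached the minimum, Cyp4f17 also had its highest value at P3, but it was called in no comparison. Cyp4f13 was at 4.61, 3.91 and 11.2 FPKM, and was 1.31 in log2 higher at 10 weeks than at P3. Cyp4f16 was at 4.53, 3.46 and 5.36 FPKM and Cyp4f17 at 3.01, 3.77 and 3.51, both under 2-fold in every comparison. Cyp4f18, known for hydroxylating leukotriene in neutrophils, was at 0.0741, 0.0847 and 0.974 FPKM, and Cyp4f14, Cyp4f15, Cyp4f40 and Cyp4f41-ps never passed 0.213. Thus 4 of the 9 Cyp4f genes reached 1 FPKM, and Cyp4f39 alone of these was called higher at P3 than at E18.5. It lies at the outer edge of the chromosome 17 cluster (mm9 chromosome 17, 32589668 to 32630265), which holds 8 of the 9 genes. Its coding sequence is 68.0% identical to its nearest relative, Cyp4f17, while Cyp4f16 and Cyp4f17 share 84.5%.

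Genes of the acylceramide pathway that are not P450s were listed beside Cyp4f39. Of 17 such genes, all above the minimum, 13 were higher and none lower at P3 against E18.5 (median 1.60), and 11 were lower and none higher at 10 weeks against P3 (median -1.38). Tgm1, which crosslinks the cornified envelope, was at 18.1, 89.7 and 13.1 FPKM. Abca12, the lipid transporter of lamellar granules, was at 14.5, 68.0 and 18.4 FPKM, and Alox12b, a lipoxygenase of linoleate-bearing ceramides, at 29.4, 85.7 and 8.72. All 3 were highest at P3, as was Cyp4f39. Elovl4, which elongates the fatty acids that Cyp4f39 acts on, was at 67.1, 291.2 and 307.9 FPKM and did not come down in the adult. Degs2, the ceramide desaturase and hydroxylase, was at 5.44, 7.67 and 2.20 FPKM.

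**Figure D3:**
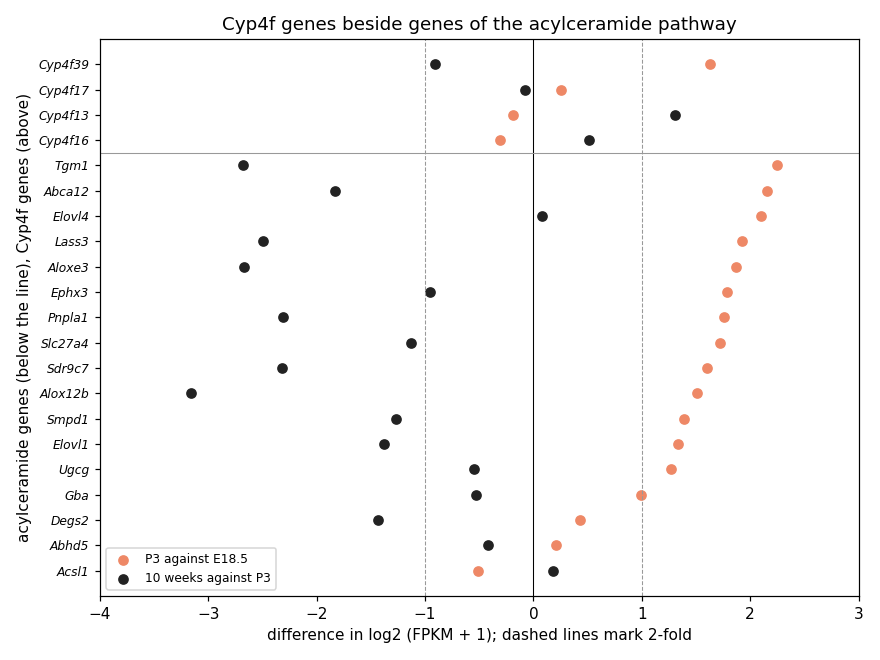
Differences in log2(FPKM + 1) for P3 against E18.5 and for 10 weeks against P3 in 17 acylceramide pathway genes and the 4 Cyp4f genes at 1 FPKM or more, with dashed lines at 2-fold. Cyp4f39 has 1.63 and -0.91 and lies on the side of Tgm1 and Abca12, whereas Cyp4f13 has -0.19 and 1.31.

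Among the retinoic acid hydroxylases, which clear retinoic acid from tissue, Cyp26b1 (mm9 chromosome 6, 84521408 to 84543902) made up nearly all of the signal. It was at 18.0, 8.80 and 22.5 FPKM, so the newborn was lowest. The difference was -0.95 in log2 for P3 against E18.5, just under 2-fold, and 1.26 for 10 weeks against P3. Under scaling by the median of ratios the first became -1.06 and by the upper quartile -1.15. Cyp26a1 was at 0.0194, 0.0132 and 0.0985 FPKM and Cyp26c1 at 0, 0.0172 and 0.0708, both under the minimum at all ages. The promoter of Cyp26b1 held neither of the retinoid half-sites AGTTCA and AGGTCA on either strand, and it is printed with those of family 1.

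Of 26 other retinoid genes, all of which reached the minimum, 6 were higher and 2 lower at P3 against E18.5 (median 0.64), and 7 higher and 4 lower at 10 weeks against P3 (median 0.17). Aldh1a1, which makes retinoic acid from retinal, was at 0.373, 1.11 and 41.7 FPKM, and Aldh1a3, of the same function, at 2.02, 9.60 and 8.18. Stra6, the cell surface receptor for retinol-binding protein, was at 0.0796, 11.3 and 0.974 FPKM, highest at P3 where Cyp26b1 was lowest. Rbp4, the retinol-binding protein itself, was at 66.8, 11.7 and 76.1 FPKM, and Rxrg, a retinoid X receptor, at 5.89, 1.05 and 8.43. These 2 genes, like Cyp26b1, had their lowest value at P3. Fabp5, a binding protein for fatty acids and retinoic acid, was at 1184, 2103 and 449.9 FPKM, and Dhrs9, a retinol dehydrogenase, at 0.122, 1.44 and 4.59.

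The vitamin D enzymes were low in whole skin except for Cyp27a1. Cyp2r1, the main liver enzyme of the first hydroxylation, was at 0.843, 0.777 and 2.01 FPKM and was called in no comparison. Cyp27b1, which makes the active hormone, was at 0.261, 0.188 and 0.564 FPKM, and Cyp24a1, which inactivates it, at 0.0227, 0.0245 and 0. Cyp27a1 is a mitochondrial sterol hydroxylase that can also take vitamin D (mm9 chromosome 1, 74760148 to 74784464). It was at 3.13, 1.79 and 25.1 FPKM. The adult stood apart, by 3.22 in log2 against P3 and 2.66 against E18.5, while the younger ages differed by -0.57.

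Of 12 other vitamin D genes, 8 reached the minimum, of which 4 were higher and 2 lower at P3 against E18.5 (median 0.89), and 1 higher and 3 lower at 10 weeks against P3 (median -0.63). The receptor Vdr was at 8.65, 42.1 and 18.8 FPKM, highest in the newborn. Trpv6, a calcium channel, was at 1.66, 6.44 and 2.22 FPKM, also highest at P3. S100g, a calcium-binding protein, was at 1.75, 0.0604 and 1.28 FPKM. Camp, an antimicrobial peptide gene that is also abundant in neutrophils, was at 19.8, 2.67 and 0.663. Sc5d, a sterol desaturase of the route to the vitamin D precursor, was at 16.0, 26.8 and 33.5.

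In cholesterol and bile acid metabolism, Cyp7b1, which hydroxylates oxysterols, also had its lowest value at P3 and its highest in the adult. It was at 0.962, 0.264 and 7.50 FPKM, a difference of 2.75 in log2 for 10 weeks against P3. Cyp39a1, another oxysterol hydroxylase, was at 4.41, 4.37 and 5.69 FPKM, under 2-fold throughout. The enzymes of classical hepatic bile acid synthesis were near 0, with the rate-limiting Cyp7a1 at 0.0116, 0.0136 and 0 FPKM and Cyp8b1 at 0.118, 0.0622 and 0.299. Cyp46a1, the cholesterol hydroxylase of neurons, was at 0.397, 0.331 and 0.427. Of 14 other genes of this pathway, 10 reached the minimum, of which 7 were higher and 1 lower at 10 weeks against P3 (median 1.45), and 1 higher and 2 lower at P3 against E18.5 (median -0.17).

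Nr1h3, an oxysterol receptor abundant in macrophages, was at 10.2, 2.35 and 17.7 FPKM, with its lowest value at P3 as for Cyp27a1. Hsd3b7, which acts on the products of Cyp7b1 and Cyp27a1, was at 13.7, 5.74 and 38.8, again lowest at P3 and highest in the adult. Acox2, a peroxisomal oxidase of the bile acid side chain, was at 0.333, 4.66 and 16.3. Akr1d1, the bile acid reductase, was at 4.61, 7.72 and 0.0351. The macrophage marker sum, given above, also had its lowest value at P3 and its highest at 10 weeks. So did the white adipocyte, skeletal muscle and fibroblast sums, while the sebaceous sum was lowest at E18.5. The part of any of these tissues in the Cyp27a1 values was not tested.

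Steroid hormone synthesis was represented by its early enzymes. Cyp11a1, which cleaves the side chain of cholesterol in the entry step to all steroids, was at 12.5, 4.13 and 8.88 FPKM (mm9 chromosome 9, 57862824 to 57874830). Among the 33 members it was the one with its highest value before birth. The difference was -1.40 in log2 for P3 against E18.5 and 0.94 for 10 weeks against P3. Cyp17a1, the hydroxylase and lyase on the route to androgens, was lowest at E18.5, at 1.85, 6.57 and 5.63 FPKM, 1.41 in log2 higher at P3 than at E18.5. Cyp21a1, needed for corticosteroids, was at 0.556, 0.284 and 1.24. The last steps were at or near 0: Cyp11b1 was at 0, 0.0127 and 0 FPKM, Cyp11b2 was listed at 0 at all ages, and the aromatase Cyp19a1 was at 0.00910, 0.00643 and 0.

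Markers of steroid-making glands differed among themselves. Nr5a1, the factor that defines adrenal and gonadal cells, never passed 0.00765 FPKM, and Hsd3b1 was at 0.139, 0 and 0. Star, the cholesterol carrier, was at 0.758, 0.898 and 1.01. Mc2r, the corticotropin receptor, was at 5.14, 1.26 and 6.58, lowest at P3 as was Cyp11a1. This list of 5 gland markers contains Cyp11a1 itself. A low value at P3 was not particular to it. The 5 mast cell genes summed to 871.5, 95.8 and 530 FPKM, and 4 of them were highest at E18.5, as was Cyp11a1. The white adipocyte, muscle, fibroblast, endothelial and macrophage sums were also lowest at P3, while the sebaceous and basal keratinocyte sums were not. The part of such glands or of any other tissue in the P450 values was not tested. Of 29 other steroid genes, 21 reached the minimum, and the symbol Sts matched no row. Of these 21, 5 were higher and none lower at P3 against E18.5, 9 higher and 4 lower at 10 weeks against P3, and 10 higher and none lower at 10 weeks against E18.5, with medians of 0.10, 0.64 and 0.98. Hsd3b6, the dehydrogenase that follows Cyp11a1, was at 0.747, 7.80 and 14.3 FPKM. Akr1c18, which inactivates progesterone, was at 4.71, 3.86 and 168.2, and the progesterone receptor Pgr at 0.0898, 0.0449 and 9.94. Both were highest in the adult. Sult2b1, the epidermal cholesterol sulfotransferase, was at 30.8, 107.7 and 18.6, and Hsd17b2, which inactivates estradiol and testosterone, at 9.74, 28.5 and 8.41, both highest at P3.

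**Figure D4:**
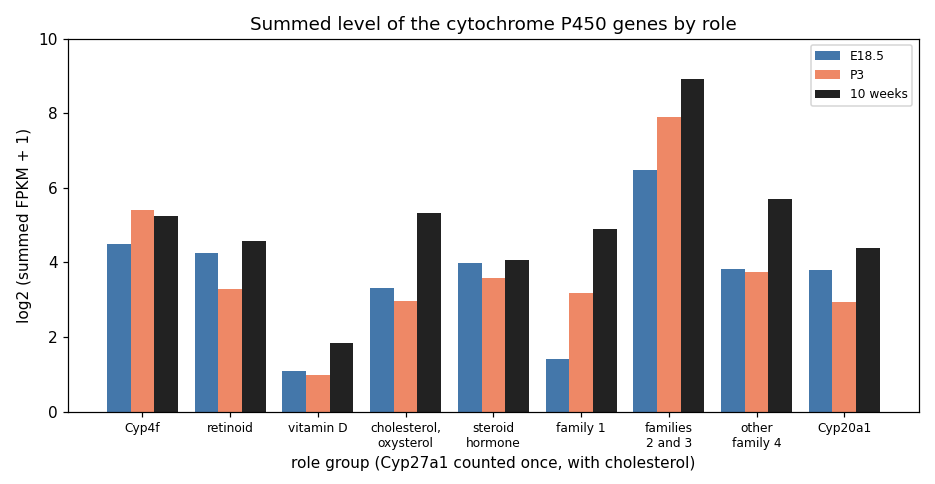
Summed level of the 102 cytochrome P450 genes by role, as log2(summed FPKM + 1), with 1 bar per age; Cyp27a1 is counted with cholesterol only. The family 1 sum was 1.64, 8.11 and 28.6 FPKM at E18.5, P3 and 10 weeks, and the steroid hormone sum 15.0, 11.0 and 15.8.

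Family 1, the classical targets of the aryl hydrocarbon receptor, a sensor of dioxins and other planar compounds, had 2 expressed members, Cyp1a1 and Cyp1b1, and both were higher at each later age. Cyp1a1 was at 0.230, 2.58 and 15.0 FPKM, differences of 1.54 and 2.16 in log2 between neighbouring ages. Cyp1b1, which oxidises estradiol and retinol outside the liver, was at 1.41, 5.53 and 13.6 FPKM, differences of 1.44 and 1.16. Cyp1a2, the hepatic member, was at 4.67e-05 FPKM at E18.5 and listed at 0 at P3 and 10 weeks. Cyp1a1 and Cyp1a2 are neighbours (mm9 chromosome 9, 57535735 to 57551629 and 57524744 to 57531462), so the 2 genes of 1 locus had very different levels in skin. With the ages scaled by the upper quartile, the difference of Cyp1b1 at 10 weeks against P3 was 0.97, under 2-fold.

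The core of the receptor's binding element, GCGTG, was searched on both strands in the promoters of RefSeq, 250 bases before to 50 after the start, in build GRCm38.p6. It occurred in 32.4% of 32851 promoters and in 12 of the 25 expressed members that matched the table (48%), and in 16 of all 75 members that matched. TATAAA was in 33 of these 75 members and 3 of the 25 expressed, against 13.6% of all promoters. AGTTCA was in 5 of the 25 (14% of all promoters) and AGGTCA in 4 (16.3%). Each motif was searched on its own, so that neighbouring matches may share end bases, and a match is only a run of letters. The promoter of Cyp2f2, a gene higher at each later age like Cyp1a1 and Cyp1b1, held no GCGTG, and Cyp2g1 matched no promoter. The promoters of both expressed family 1 genes are shown because family 1 holds the classical targets of the receptor. GCGTG is in capitals, or CACGC where it lies on the other strand. The promoter of Cyp26b1 is shown with TATAAA in capitals.
Cyp1a1, chr9:57697363-57697662, plus strand: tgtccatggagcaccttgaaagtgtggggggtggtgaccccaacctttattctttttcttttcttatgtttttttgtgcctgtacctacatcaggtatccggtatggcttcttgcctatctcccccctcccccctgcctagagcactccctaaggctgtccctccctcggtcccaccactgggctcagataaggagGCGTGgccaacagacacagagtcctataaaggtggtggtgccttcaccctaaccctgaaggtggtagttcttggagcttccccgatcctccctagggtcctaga
Cyp1b1, chr17:79715012-79715311, minus strand: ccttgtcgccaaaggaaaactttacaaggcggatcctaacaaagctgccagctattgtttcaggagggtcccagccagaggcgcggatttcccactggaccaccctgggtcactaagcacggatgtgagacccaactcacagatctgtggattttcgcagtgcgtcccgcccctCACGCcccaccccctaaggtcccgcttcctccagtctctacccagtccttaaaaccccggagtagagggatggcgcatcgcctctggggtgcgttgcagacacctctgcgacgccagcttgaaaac
Cyp26b1, chr6:84593761-84594060, minus strand: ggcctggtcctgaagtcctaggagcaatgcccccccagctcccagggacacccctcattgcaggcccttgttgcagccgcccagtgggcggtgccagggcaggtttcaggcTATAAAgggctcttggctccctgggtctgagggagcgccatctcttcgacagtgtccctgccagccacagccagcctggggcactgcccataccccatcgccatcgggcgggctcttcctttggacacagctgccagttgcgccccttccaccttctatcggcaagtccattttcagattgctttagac
The match began 54 bases before the start in Cyp1a1, followed by TATAAA at 30 bases before, and 76 bases before the start in Cyp1b1. In Cyp26b1, TATAAA lay 139 bases before the start.

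Of 20 other genes of the xenobiotic response, 17 reached the minimum, of which 2 were higher and 1 lower at P3 against E18.5 (median -0.17), and 7 higher and 1 lower at 10 weeks against P3 (median 0.80). Aldh3a1, an aldehyde dehydrogenase of the same receptor battery, was at 0.158, 2.81 and 23.2 FPKM, and Ugt1a1, a glucuronosyltransferase, at 1.61, 11.3 and 22.6. Aldh3a1 was higher at each later age, as were Cyp1a1 and Cyp1b1, while Ugt1a1 was called at P3 against E18.5 and differed by 0.94 in log2, under 2-fold, at 10 weeks against P3. Others of the list did not share this order. Tiparp, at 11.6, 8.76 and 13.4 FPKM, and Ugt1a6a, at 3.86, 3.22 and 4.63, were called in no comparison. Nqo1, at 2.25, 3.48 and 6.80, was called only at 10 weeks against E18.5. The receptor Ahr itself was at 12.9, 14.9 and 15.5 FPKM and its repressor Ahrr at 1.03, 0.800 and 1.53, both under 2-fold. The glutathione transferases divided, with Gsta1 at 33.5, 29.7 and 3.02, Gsta2 at 17.7, 6.56 and 3.53, and Gsta3 at 1.29, 0.472 and 8.92.

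Family 2 supplied the most abundant P450 RNAs of the skin. Cyp2g1, best known as a steroid-metabolising enzyme of the olfactory mucosa, was at 5.25, 57.2 and 230.8 FPKM, and no other member reached the adult value at any age. It differed by 3.22 in log2 between E18.5 and P3 and by 1.99 between P3 and 10 weeks, and by 43.9-fold in FPKM over the whole span. Cyp2f2, known from the club cells of the airway where it activates naphthalene, was at 4.87, 30.4 and 76.0 FPKM, differences of 2.42 and 1.29. Both were higher at each later age.

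Cyp2b19, a keratinocyte epoxygenase of arachidonic acid found in differentiated epidermis, was at 35.3, 101.1 and 31.4 FPKM. It was the most abundant member before birth and in the newborn, and differed by 1.49 in log2 at P3 against E18.5 and by -1.65 at 10 weeks against P3. Cyp2s1, an epithelial member outside the liver that can be induced by dioxin, was likewise highest at P3, at 4.92, 15.6 and 4.03 FPKM, with differences of 1.49 and -1.72. Cyp2w1, known from fetal gut, was at 10.1, 10.7 and 2.04, and was 1.95 in log2 lower at 10 weeks than at P3. Of the 7 suprabasal keratinocyte markers with a P3 value, 6 were higher and none lower at P3 against E18.5, and 7 were lower at 10 weeks against P3. The same order was seen in other lists. At P3 against E18.5, 4 of 6 basal keratinocyte, 8 of 9 hair and 3 of 5 melanocyte markers were higher and none lower. At 10 weeks against P3, 2, 9 and 5 of them were lower and none higher. Most adipocyte, muscle, fibroblast and endothelial markers went the other way. The part of any of these cell types in the P450 values was not tested.

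Cyp2b10, the hepatic gene of the same subfamily as Cyp2b19, was at 5.89, 10.7 and 18.6 FPKM, 1.51 in log2 higher at 10 weeks than at E18.5 and under 2-fold between neighbouring ages. Cyp2b19, Cyp2g1, Cyp2f2, Cyp2s1 and Cyp2b10 belong to 1 cluster of 13 P450 genes (mm9 chromosome 7, 26587495 to 27943583). The other 8 genes of the cluster stayed under 1 FPKM. Cyp2b19 and Cyp2g1 stand next to each other in P450 gene order (27542206 to 27557649 and 27593946 to 27606216), and Cyp2b19 was lower and Cyp2g1 higher in the adult than at P3. The summed level of the cluster was 56.4, 215.3 and 362.2 FPKM. Coding sequence identity was 87.3% between Cyp2b19 and Cyp2b23 and 87.3% between Cyp2b10 and Cyp2b13, and how reads shared by such genes were assigned is not given in the sources used here.

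**Figure D5:**
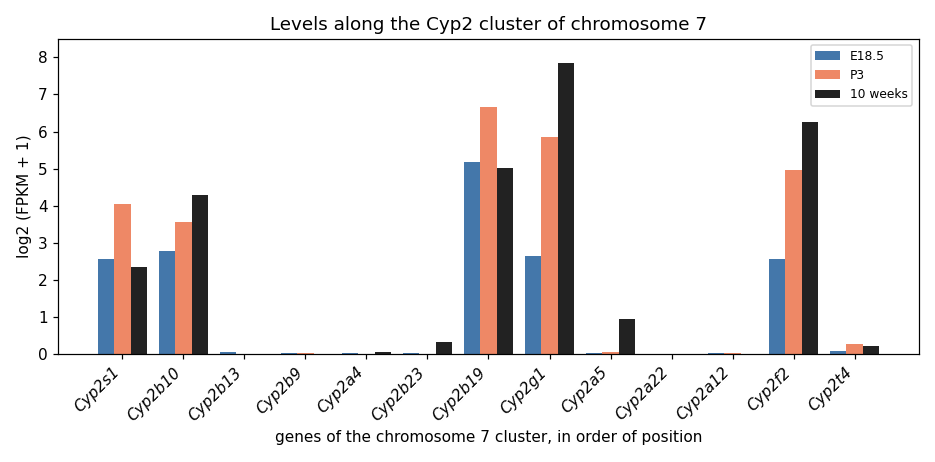
Levels of the 13 cytochrome P450 genes of the chromosome 7 cluster in order of position, as log2(FPKM + 1) with 1 bar per age. The 5 genes above 1 FPKM stand among 8 neighbours under 1 FPKM, and the P3 bar is highest in Cyp2s1 and Cyp2b19 while the 10-week bar is highest in Cyp2b10, Cyp2g1 and Cyp2f2.

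Cyp2e1, the ethanol-oxidising enzyme of liver that is also made in fat, had a low value in the newborn between 2 higher ones. It was at 11.5, 0.183 and 65.5 FPKM (mm9 chromosome 7, 147949731 to 147960876), differences of -3.40 and 5.81 in log2. In FPKM the newborn was 62.6-fold below E18.5, though its value lies under 1 FPKM. Of the white adipocyte markers, 5 of 7 were lower and 1 higher at P3 against E18.5, and 7 of 7 higher at 10 weeks against P3. This order was not particular to fat. At P3 against E18.5, 7 of 7 muscle, 6 of 6 fibroblast, 5 of 6 endothelial and 7 of 7 hepatocyte markers were lower. At 10 weeks against P3, 7, 4, 5 and 1 of them were higher. None of the keratinocyte, hair, sebaceous or melanocyte markers compared was lower at P3 against E18.5. Adipoq, the adipocyte hormone gene, was at 326.3, 68.8 and 509.1 FPKM, a smaller swing in the same order. The part of fat or of any other tissue in the Cyp2e1 values was not tested.

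The Cyp2j subfamily holds epoxygenases, which make epoxides from arachidonic acid. Of the 8 Cyp2j genes, 5 reached the minimum and were called higher at 10 weeks than at P3 (background 19.8%), but 3 of them, the rows named as pseudogenes, reached it at 10 weeks alone and so had to be high there. The other 3, Cyp2j5, Cyp2j11-ps and Cyp2j13, never passed 0.111 FPKM. Cyp2j6 was at 3.82, 3.95 and 14.7 FPKM and Cyp2j9 at 0.993, 1.47 and 7.78. The rows named as pseudogenes were lower, with Cyp2j12-ps at 0.0193, 0.0733 and 6.28, Cyp2j8-ps at 0.00516, 0.488 and 4.87, and Cyp2j7-ps at 0.00510, 0 and 1.01. In GENCODE, Cyp2j7-ps, Cyp2j8-ps and Cyp2j12-ps matched protein-coding transcripts named Cyp2j7, Cyp2j8 and Cyp2j12. Their reading frames had 504, 503 and 502 codons with the heme signature, so the ending -ps is only the name of the row. Coding sequences are 82.8% identical between Cyp2j6 and Cyp2j9 and 88.9% between Cyp2j8-ps and Cyp2j11-ps. Reads may be shared among these genes, which leaves the values of single rows uncertain.

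Of 16 other genes of arachidonic acid and epoxide metabolism, all at the minimum, 6 were higher and 2 lower at P3 against E18.5 (median 0.54), and 6 higher and 4 lower at 10 weeks against P3 (median 0.49). Ephx2, the soluble hydrolase that removes the epoxides made by Cyp2j and Cyp2b19, was at 18.0, 6.03 and 26.8 FPKM, lowest at P3. Ephx3, a hydrolase of barrier lipid epoxides, was at 6.11, 23.5 and 11.7, highest at P3. Alox5, the leukotriene lipoxygenase, was at 1.68, 5.33 and 18.7, and Alox12 at 7.47, 18.8 and 3.88. The cyclooxygenase Ptgs1 was at 21.0, 68.3 and 36.2 FPKM and the prostaglandin D synthase Ptgds at 16.6, 28.2 and 4.50. P450 proteins whose symbols fall outside the rule also differed, with prostacyclin synthase Ptgis at 4.36, 0.928 and 5.48 FPKM, thromboxane synthase Tbxas1 at 0.967, 0.453 and 13.5, and Cyp51, the lanosterol demethylase, at 25.4, 49.4 and 25.3.

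The remaining expressed members of families 2 and 3 were modest. Cyp2d22, the closest mouse relative of the human drug enzyme CYP2D6, was at 3.58, 1.54 and 9.37 FPKM, a difference of 2.03 in log2 for 10 weeks against P3. Its difference of 1.18 for 10 weeks against E18.5 was 0.99 with scaling by the median of ratios and 0.84 by the upper quartile. Cyp2ab1 was at 0.0340, 0.0236 and 1.47. Cyp3a13 was at 0.474, 1.86 and 1.22, and Cyp3a57 at 0.107, 1.10 and 8.61, a difference of 2.20 in log2 for 10 weeks against P3. Cyp3a57 is 94.2% identical in coding sequence to Cyp3a59, which is listed at 0 throughout, so the split of reads between this pair is uncertain.

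In family 4 outside Cyp4f, 2 of 11 genes reached the minimum. Cyp4b1, a fatty acid hydroxylase of lung and other tissues outside the liver, was at 12.1, 11.3 and 35.8 FPKM, 1.58 in log2 higher at 10 weeks than at P3. Cyp4v3, the counterpart of human CYP4V2, a fatty acid hydroxylase whose loss harms the retina, was at 0.955, 1.06 and 14.6, 2.93 higher. Both were flat between E18.5 and P3, at -0.08 and 0.07. All 8 Cyp4a genes, the fatty acid hydroxylases of liver and kidney, were under the minimum. Cyp20a1, whose substrate is unknown, was at 12.8, 6.64 and 19.9 FPKM, lowest at P3, with a difference of 1.46 for 10 weeks against P3.

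The partners that P450 enzymes need were present at every age. Of 15 partner genes, all of which reached the minimum, 1 was higher and 1 lower at P3 against E18.5, 2 higher and none lower at 10 weeks against P3, and 3 higher and none lower at 10 weeks against E18.5, with medians of -0.04, 0.43 and 0.47. Por, the electron donor of the microsomal enzymes, was at 31.4, 35.8 and 48.3 FPKM. Cytochrome b5, Cyb5, which can pass on an electron, was at 211.3, 171.1 and 344.2, and its reductases Cyb5r1 and Cyb5r3 at 15.5, 12.0 and 32.8 and at 44.7, 76.7 and 94.0. Alas1, which starts heme synthesis, was at 40.2, 19.4 and 28.4, and Hmox1, which breaks heme down, at 33.6, 104.8 and 76.9.

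The 69 members under 1 FPKM included the large subfamilies that are known from liver. Of these, 8 were listed at 0 at every age, and the others summed to 3.00, 1.65 and 5.85 FPKM over the successive ages. All 16 Cyp2c genes were among them, with sums of 0.887, 0.0631 and 0.506, as were 9 of 10 Cyp2d genes, 7 of 9 Cyp3a genes, all 8 Cyp4a genes and all 4 Cyp2a genes. A value above 0 was listed for 55 of the 69 before birth, 33 in the newborn and 22 in the adult. At E18.5 alone it was listed for 25, of which 8 were Cyp2c, 6 Cyp2d and 4 Cyp3a genes, against 4 at P3 alone and none at 10 weeks alone. The same shares over all rows under 1 FPKM were not taken, so these counts cannot be read as particular to P450 genes. The depth of each library is unknown, and its part in these numbers was not tested.

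Hepatocyte markers had their highest value at E18.5 in 7 of 7 genes. The 7 hepatocyte genes summed to 49.9, 0.794 and 6.29 FPKM, with 7 of 7 lower at P3 than at E18.5, and Alb, the albumin gene, at 27.1, 0.486 and 5.43. None of the 7 was at 0 at E18.5 or P3, and 2 were at 0 at 10 weeks. Their part in the E18.5 traces of Cyp2c, Cyp2d and Cyp3a RNA was not tested.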

How the data were processed

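RNA from whole skin was sequenced at 3 ages, and the deposited tables give 1 averaged FPKM value per gene and age, as their headers name it. Per the submitters' processing notes the authors used TopHat2 2.0.7, Cufflinks 2.1.1 and build mm9; annotation, strand setting and depth were not given in the sources used here. All 102 P450 rows had finite values, with the status OK or NOTEST. Differences were taken as log2(FPKM + 1) over rows that reached 1 FPKM at any age, and calls were made at 2-fold. No test was run, since no replicates were used. The call step was run on simulated fold changes and compared with the same formula and cut. That checks only the code and gives no measure of error in the calls. The members and gene lists were chosen with earlier results of these data known. Every member at 1 FPKM and every member of the role lists may be named, and from each pathway list the 2 largest called differences in each direction. Por, Ahr, Ahrr, Tiparp, Ugt1a6a, Nqo1, Cyp2c and cluster examples beyond that were chosen after their values were seen. Starts in mm9 have 1 added to the deposited value. The heme loop was searched in GENCODE M21 coding sequences with Python 3.11.15, pandas 2.3.3, numpy 2.4.6 and Biopython 1.88, identity with edlib 1.3.9, and motifs in RefSeq promoters. Alternatives were other pseudocounts (0.1 and 5 FPKM), minimums, scalings between ages, and sets of members.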

Additional observations from a re-analysis of the deposited data

How the results depend on the processing

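The direction of no called difference of a named member reversed under another pseudocount, minimum or scaling. With a pseudocount of 0.1 FPKM, 5 members were lower at P3 against E18.5 instead of 2. With a pseudocount of 5 FPKM, 5 were higher and 1 lower at P3 against E18.5 and 13 were higher at 10 weeks against P3, and 16 calls of single members were lost. Scaling by the upper quartile gave 5 lower at P3 against E18.5. An alternative chosen after seeing the data, a minimum of 1 FPKM at all 3 ages, left 20 members, of which 1 was lower at P3 against E18.5, 10 were higher at 10 weeks against P3 and 10 were higher at 10 weeks against E18.5. All other counts of calls were within 1.5 times the reported count. Scaling by the median of ratios moved the median of all genes by -0.09, -0.09 and -0.19 in log2 in the 3 comparisons, and the upper quartile by -0.17, -0.16 and -0.35. Leaving out members by protein identity was not run; coding sequence identity of 90% was used in its place, chosen after seeing the data. No paired analysis was possible because the tables hold 1 averaged value per age. Depth is unknown, so values under 1 FPKM carry no stated precision.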
